A study of Bos taurus with 30 samples.

Results

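The miR-26 family of calf testis was taken as every row of the deposited miRNA table whose miRNA number is 26 followed by a letter, and comprised miR-26a, miR-26b and miR-26c. These were 3 of 1030 miRNA rows, and 2 of the 3, miR-26a and miR-26b, had reads. The study sequenced small RNA of testes from 30 male Holstein-Friesian calves to ask how feeding in early life bears on testis miRNAs. On the High diet (15 libraries) calves drank 10 L of milk replacer holding 1.5 kg each day and ate concentrates freely, and a growth of 1.0 kg daily was aimed for. On the Moderate diet (15 libraries) they drank 4 L holding 0.5 kg and ate 0.5 kg of concentrates daily, and a growth of 0.5 kg was aimed for. Both diets were fed from 2 weeks of age and all testes were sampled at 12 weeks. The tissue was whole testis, so each value is a sum over germ cells, Sertoli cells, Leydig cells and the other cells of the organ. In such samples fewer cells of a type and less RNA per cell cannot be told apart.

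miRNAs are short RNAs that guide the silencing complex to mRNAs that pair with them, mainly through a short stretch near the miRNA's start called the seed. miR-26a and miR-26b carry the same seed and so share most of their predicted targets. In human and mouse cells the family is known to slow the cell cycle and to repress EZH2, a histone methyltransferase that silences genes. It is encoded within genes of small phosphatases that act on the C-terminal domain of RNA polymerase II (the CTDSP genes), and host and miRNA are known to be transcribed together in several vertebrates.

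In the RefSeq gene table of the bovine assembly ARS-UCD2.0, 4 miRNA genes of the family were listed. MIR26B lay within the span of CTDSP1 and MIR26A-2 within that of CTDSP2. MIR26A-1 lay within CTDSPL. No miRNA gene lay within CTDSPL2. MIR26C had the same start and end as MIR26A-1, so a single place in the genome carries both names. The table gives neither exons nor strands, so whether these positions are intronic, and on which strand MIR26C lies, was not tested. miR-26a, 1 row in the deposited table, can thus come from 2 places, whereas miR-26b has 1 gene. CTDSPL also holds MIR2367, and its more abundant arm, miR-2367-5p, was at 0.554 ± 0.329 under High and 0.439 ± 0.188 under Moderate (SD, n = 15 each), below the level at which miRNAs were tested.

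Values are the deposited ones, in reads per M reads (CPM, where M reads are reads in units of 1e6), with library sizes scaled by the TMM method of edgeR, and rest on 6.0003 to 19.98 M reads per library. Diet was taken from the diet characteristic of each library. In 18 libraries (9 per diet) the title names the opposite diet, so each statement on diet depends on the characteristic being right. Moderate replicate 5 stood apart: miR-10b took 84.8% of its reads (95% Wilson interval 84.8% to 84.9%), against 37.0% to 49.0% in the other 29 libraries. Results that rest on this library are given with and without it.

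miR-26a was among the most abundant miRNAs of the testis, miR-26b was far less abundant, and miR-26c was not seen. In the High libraries miR-26a ranged from 35265 to 49718 TMM-scaled CPM with a median of 42188, and in the Moderate libraries from 24506 to 70105 with a median of 47261. By level it ranked at place 3 or 4 in every library except Moderate replicate 5, where it ranked at place 8. Over the 30 libraries its mean of 44318 stood between miR-148a at 52272, which it exceeded in 5 libraries, and miR-181a at 24227, which it exceeded in 29. The order of miR-26a and miR-148a thus differed between libraries.

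miR-26b ranged from 3570 to 4153 TMM-scaled CPM under High, with a median of 3911, and from 2935 to 4704 under Moderate, with a median of 4150. It ranked between places 21 and 31 in single libraries. By its mean of 3963 it stood between miR-186 at 4529, which it exceeded in 5 of 30 libraries, and miR-424-5p at 3748, which it exceeded in 20. The levels of these neighbours overlapped with its own. As a share of all reads, miR-26a took 4.52% ± 0.441 under High and 4.64% ± 1.33 under Moderate, and miR-26b took 0.420% ± 0.0251 under High and 0.397% ± 0.0961 under Moderate (SD, n = 15 each). Both members had their lowest share in Moderate replicate 5. There miR-26a took 0.580% (95% Wilson interval 0.575% to 0.585%) and miR-26b 0.0695% (0.0678% to 0.0712%). Without that library the Moderate shares were 4.93% ± 0.734 for miR-26a and 0.420% ± 0.0335 for miR-26b (n = 14).

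miR-26c was listed at 0 in all 30 libraries. A count of 0 allows up to 3 reads, which is 0.138 to 1.43 TMM-scaled CPM depending on the library and covers counting error only. Its place in the genome is also that of MIR26A-1, and how the authors assigned reads between the 2 names was not given in the sources used here. Another pair of names for 1 place, MIR409A and MIR409B, had the same form, with miR-409a above 0 in all 30 libraries and miR-409b at 0 in each.

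**Figure D1:**
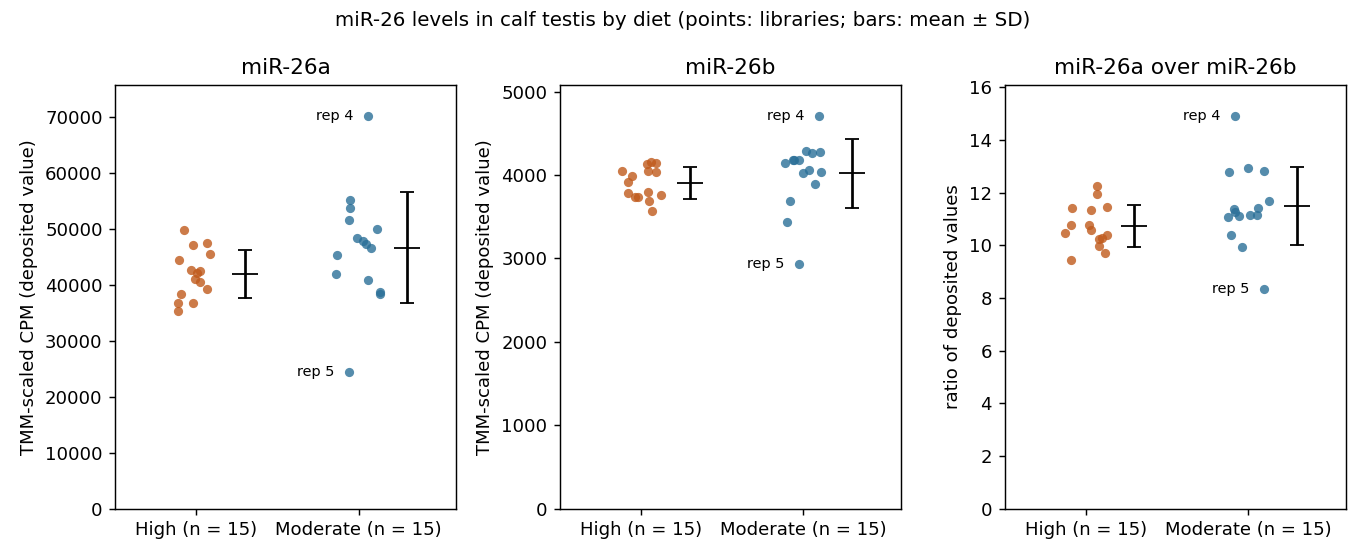
Level of miR-26a (left), miR-26b (middle) and their ratio (right) in each of the 15 High and 15 Moderate libraries, in TMM-scaled CPM or as a ratio, with mean ± SD. The diets overlap in all 3 panels, and Moderate replicates 4 and 5 hold the highest and the lowest value of each.

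The diets were compared in the 387 miRNAs that reached a value of 1 in 15 or more libraries, with limma on log2(value + 0.5) and Benjamini-Hochberg adjustment over all 387. Neither of the 2 tested members passed an adjusted p of 0.05, where 19 of the 387 miRNAs (4.91%) did. miR-26a averaged 41971 ± 4295 under High and 46665 ± 9971 under Moderate (SD, n = 15 each). Its log2 fold change, High over Moderate, was -0.13 with a standard error of 0.092 and a 95% confidence interval of -0.31 to 0.061 (limma adjusted p = 0.445). miR-26b averaged 3904 ± 188 under High and 4022 ± 415 under Moderate, with a log2 fold change of -0.037, a standard error of 0.050 and an interval of -0.14 to 0.065 (limma adjusted p = 0.720). The interval was narrower for miR-26b than for miR-26a.

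For miR-26a, 13 of 15 High libraries were under the median of the Moderate ones, and 5 Moderate libraries lay above the highest High one. For miR-26b, 14 of 15 were under that median, and 7 Moderate libraries lay above the highest High one. By share of all reads the tally was 12 of 15 High libraries under the Moderate median for miR-26a, with 2 Moderate libraries above the highest High one, and 6 of 15 for miR-26b, with 0 above. Moderate replicate 5, the lowest of all libraries for both, and Moderate replicate 4, the highest for both, pulled the estimate in opposite directions. Without Moderate replicate 5 the log2 fold change of miR-26a was -0.19 with a standard error of 0.069 (limma adjusted p = 0.0664, unadjusted p = 0.00949), in a fit in which 45 of 385 miRNAs (11.7%) passed. Without Moderate replicate 4 it was -0.082 (limma adjusted p = 0.601). For miR-26b the corresponding values were -0.068 and -0.020 (limma adjusted p = 0.199 and 0.846). Neither member passed in any of the 30 fits that left out 1 library.

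Without adjustment, 0 of the 2 members and 82 of the 387 miRNAs had a limma p under 0.05. On the recovered reads, edgeR's quasi-likelihood test called neither member, where 36 of 378 miRNAs (9.52%) passed. There miR-26a stood at -0.17 (edgeR unadjusted p = 0.0363, adjusted p = 0.161). DESeq2 called neither as well, where 52 of 399 miRNAs (13%) passed, with miR-26a at -0.15 (DESeq2 adjusted p = 0.244).

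**Figure D2:**
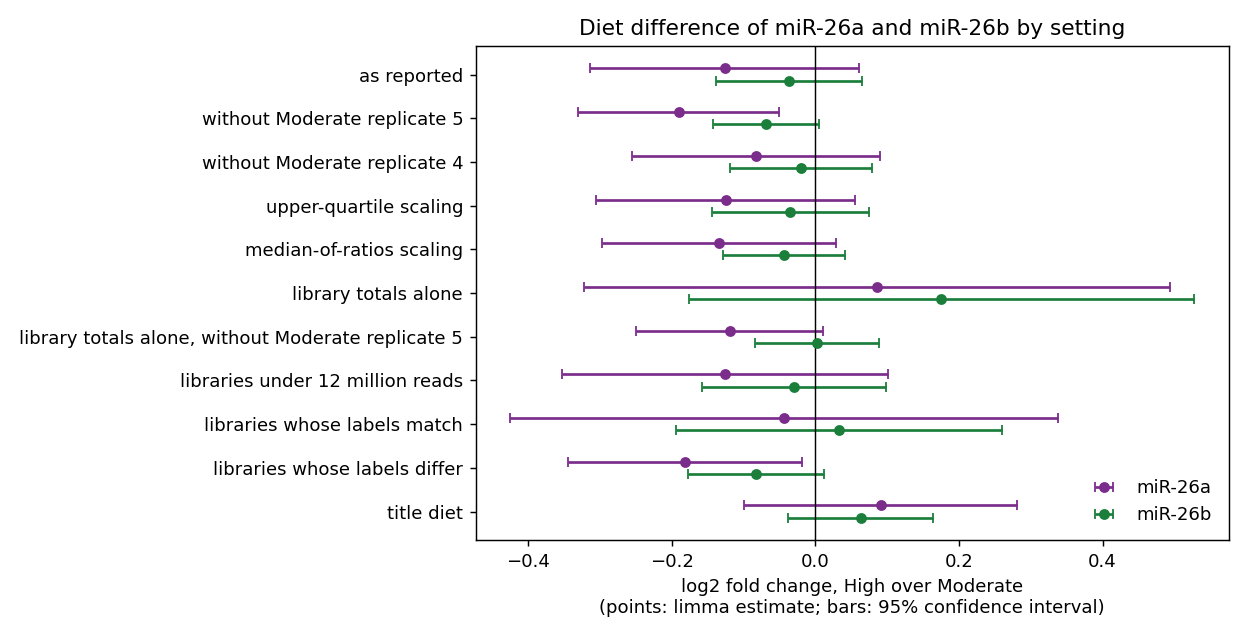
Log2 fold change of miR-26a and miR-26b, High over Moderate, with 95% confidence intervals from limma under 11 settings. The miR-26a estimate is below 0 in 9 of the 11 and above 0 with library totals alone and with the diet of the titles.

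miR-26a outnumbered miR-26b in every library, and the ratio between them compares the members without any scaling between libraries. miR-26a was 10.7 ± 0.809 times miR-26b under High and 11.5 ± 1.49 times under Moderate (SD, n = 15 each). In the High libraries the ratio ran from 9.44 to 12.3 with a median of 10.6, and in the Moderate libraries from 8.35 to 14.9 with a median of 11.3. The ranges overlapped, with 10 of 15 High libraries below the Moderate median. miR-26a made up 90.4% to 92.5% of the reads of the family under High and 89.3% to 93.7% under Moderate. On the log2 scale the ratio differed by -0.090 between the diets, with a standard error of 0.056 (permutation p = 0.122, two-sided, 100000 resamples, 1 pair of members).

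The result for the ratio rested on Moderate replicate 5, which had the lowest ratio of all libraries. Without it the log2 ratio was 3.42 ± 0.108 under High and 3.54 ± 0.148 under Moderate (n = 15 and 14), a difference of -0.12 with a standard error of 0.048 (permutation p = 0.0153). When each other library was left out in turn, the permutation p lay above 0.05.

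The 2 members varied together between calves. Across the 30 libraries, Pearson's r of their log2 values was 0.904 and Spearman's rho 0.877 (permutation p = 1e-05 for each, the smallest that 100000 resamples can give, 1 pair). Without the 2 libraries farthest from the miR-26a median, Moderate replicates 4 and 5, r was 0.790. Within the diets r was 0.728 under High (permutation p = 0.00245, n = 15) and 0.939 under Moderate (permutation p = 1e-05, n = 15; 0.857 without replicate 5). The scaling factor of a library is common to both values: with library totals alone, rho was 0.623, and r was 0.639 without Moderate replicate 5. miR-26b moved less than miR-26a, by 0.427 on the log2 scale per unit of miR-26a across the 30 libraries and by 0.377 without Moderate replicate 5.

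**Figure D3:**
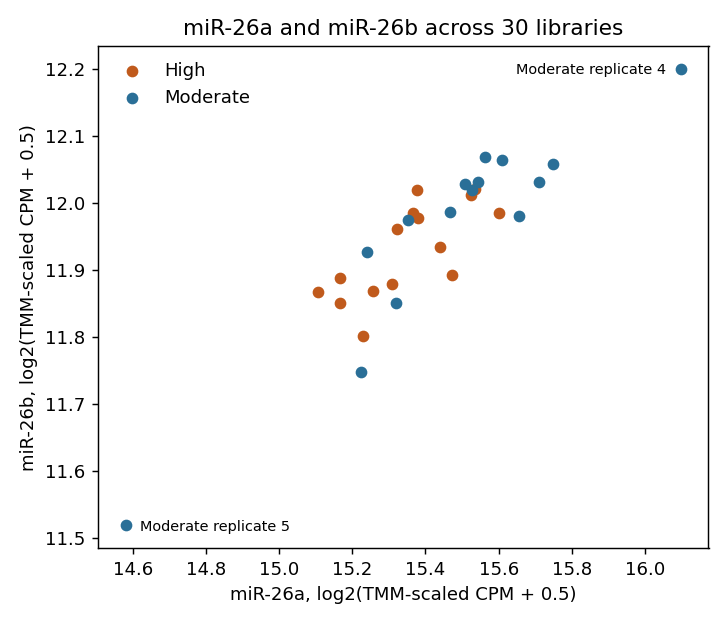
miR-26b against miR-26a in 30 libraries, both as log2(TMM-scaled CPM + 0.5), coloured by diet. The libraries fall along 1 band (r = 0.904) with Moderate replicates 5 and 4 at its ends. High and Moderate libraries overlap along it, with 5 Moderate libraries above the highest High one for miR-26a and 7 for miR-26b.

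Among the 386 other tested miRNAs, the one whose profile over the 30 libraries was most like that of miR-26a was miR-26b, and the reverse held too. Outside the family, miR-101 came first for both members, with a Spearman rho of 0.798 to miR-26a and 0.776 to miR-26b, where the median over all 386 was 0.0154 for miR-26a. miR-101 is known as a repressor of EZH2 in human cancer cells. Without Moderate replicate 5 these values were 0.777 and 0.752. The next for miR-26a were miR-181c (rho 0.663), of a family known from T cell development, and miR-23b-3p (0.653). For miR-26b they were miR-99a-3p (0.668) and miR-181c (0.640). These are descriptions over 30 libraries that share their scaling, depth and Moderate replicate 5.

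miR-101 had 6273 ± 440 TMM-scaled CPM under High and 6335 ± 1406 under Moderate (SD, n = 15 each), a log2 fold change of 0.036 (limma adjusted p = 0.872). miR-101, miR-181c and miR-23b-3p were all highest in Moderate replicate 4 and lowest in Moderate replicate 5, as were both members of the family. They were picked for their correlation with a member over these same libraries, so shared extremes are partly built into the choice. How many of all tested miRNAs had the same extremes was not counted. In replicate 4 miR-101 reached 7808 and in replicate 5 it was at 2054. miR-99a-3p was also lowest in replicate 5, at 14.3, but replicate 4, at 77.9, was at place 3, below a highest value of 82.8. None of these similar miRNAs passed the test for diet.

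**Figure D4:**
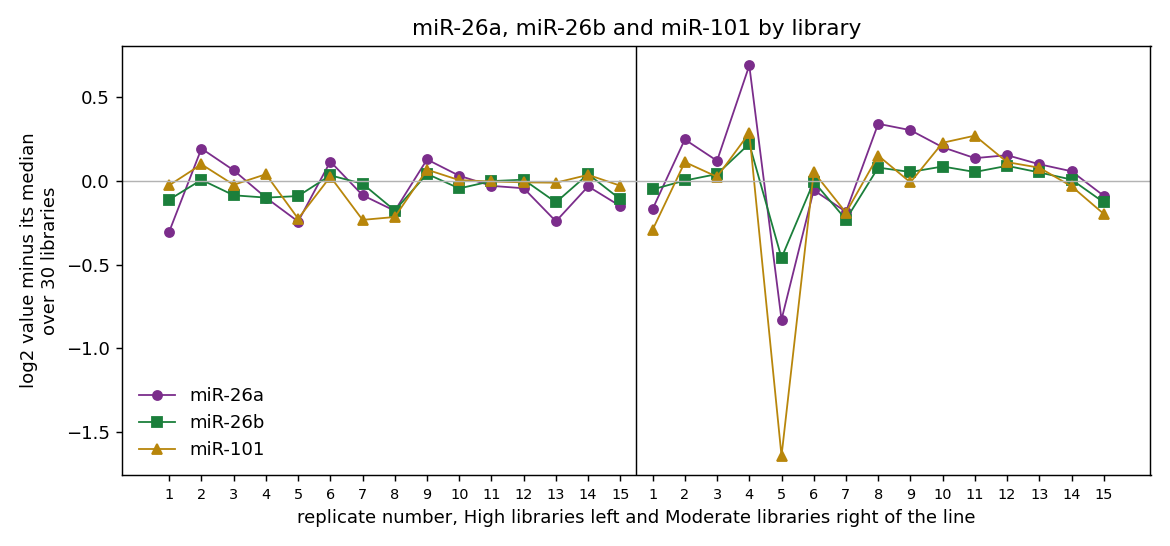
Log2 value of miR-26a, miR-26b and miR-101 in each library minus the median of that miRNA over the 30 libraries, with the 15 High libraries on the left. The 3 lines move together, with their highest points in Moderate replicate 4 and their lowest in Moderate replicate 5.

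Despite its lower level, miR-26b was the steadier member. Its SD of log2 values within diet was 0.124, the 14th smallest of the 387 tested miRNAs, and 0.0894 without Moderate replicate 5, the 6th smallest. miR-26a had an SD of 0.257, at place 109 of 387, and 0.191 without that library, at place 123. The median over all tested miRNAs was 0.334, and 0.255 without that library. Among the 50 most abundant miRNAs, where counting error is small, miR-26b was at place 4 and miR-26a at place 38 from the steadiest without Moderate replicate 5 (median SD 0.143).

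**Figure D5:**
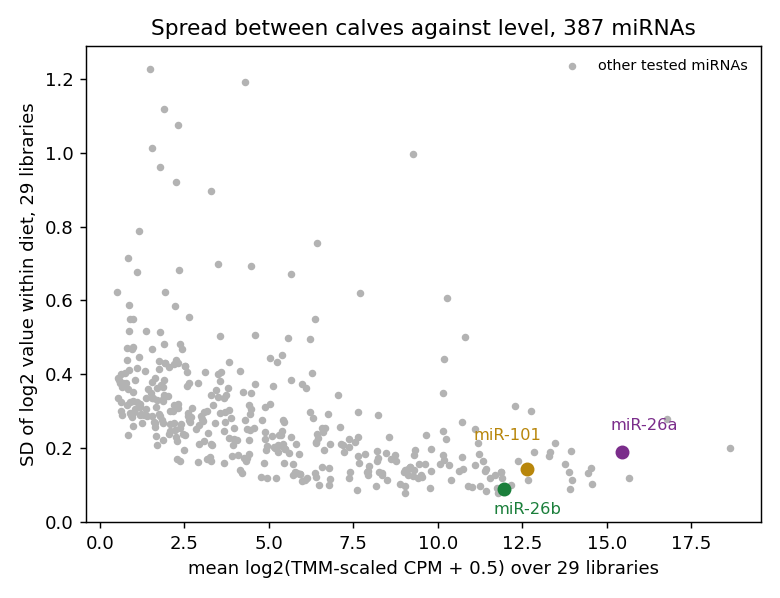
SD of log2 values within diet against mean level for the 387 tested miRNAs, in the 29 libraries without Moderate replicate 5. miR-101 is marked for comparison. miR-26b (0.0894) lies at the lower edge for its level, and miR-26a (0.191) lies above most miRNAs of its level.

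The diet difference was also taken by depth and by agreement of the labels. In the 24 libraries under 12 M reads miR-26a was at 41090 ± 4508 under High (n = 11) and 45747 ± 10439 under Moderate (n = 13), with a log2 fold change of -0.13 (limma adjusted p = 0.617). In the 6 deeper libraries it ranged from 40582 to 47117 under High (n = 4) and from 51618 to 53647 under Moderate (n = 2). These ranges did not overlap, but how many of all miRNAs were likewise separate in these few libraries was not counted. The log2 fold change there was -0.25 (limma adjusted p = 0.421, unadjusted p = 0.0233), in a fit in which 2 of 397 miRNAs passed. The ratio to miR-26b differed by -0.17 (exact permutation p = 0.133, two-sided, the smallest that 4 against 2 libraries can give). For the interaction of diet with depth class, 0 of 387 miRNAs passed. It was -0.12 for miR-26a (confidence interval -0.61 to 0.37, limma adjusted p = 0.997). For miR-26b it was -0.047 (confidence interval -0.32 to 0.23, limma adjusted p = 0.997). With only 4 and 2 deeper libraries, these intervals are too wide to tell whether the diet difference depends on depth. This interaction was not fitted without Moderate replicate 5, which is among the libraries under 12 M reads.

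In the 12 libraries whose title and characteristic give the same diet, miR-26a was at 39587 ± 4338 under High and 42015 ± 11291 under Moderate (SD, n = 6 each), and its log2 fold change was -0.044 (limma adjusted p = 0.927). That value rested on Moderate replicate 5, without which it was -0.19 (limma adjusted p = 0.420, n = 6 and 5). In the 18 libraries whose labels differ miR-26a was at 43560 ± 3663 under High and 49764 ± 8203 under Moderate (SD, n = 9 each). Its log2 fold change there was -0.18 (limma adjusted p = 0.280, unadjusted p = 0.0313), in a fit in which 0 of 384 miRNAs passed. The interaction of diet with label agreement was -0.14 for miR-26a (confidence interval -0.50 to 0.22, limma adjusted p = 0.850). In that fit 0 of 387 miRNAs passed, so the absence of a call is not particular to miR-26a. The interaction was not fitted without Moderate replicate 5. Leaving that library out, the log2 fold change of miR-26a was -0.19 where labels match, beside -0.18 where they differ. With the diet of the titles, both members changed sign: miR-26a stood at 0.091 and miR-26b at 0.063 (limma adjusted p = 0.981 each), and 0 of the 387 miRNAs (0%) passed, with 11 at an unadjusted limma p under 0.05.

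Other miRNAs of the same regulatory circuits were taken from lists based on general knowledge. MYC, a transcription factor that drives cell growth, is known to repress miR-26 together with the let-7 and miR-98, miR-15, miR-16, miR-195 and miR-497, miR-22, miR-29, miR-30, miR-34, miR-146 and miR-150 families in lymphoma cells. Of 35 tested members of this list without miR-26, 5 rose, 0 fell and 30 did not pass in limma, where 2.33% of all tested miRNAs were higher under High and passed. The median log2 fold change of the list was 0.16 and that of all 387 was 0.031. The 5 were miR-34a, miR-34b, miR-34c, miR-22-3p and miR-497. Members were matched on the miRNA number with any letter and arm, so miR-34b and miR-34c are counted here and again in the germ cell list below. miR-34c, a miRNA of male germ cells, had the largest fold change among these 5, at 113 ± 42.1 under High and 64.6 ± 37.0 under Moderate (0.96, limma adjusted p = 0.0260). miR-22-3p was at 12517 ± 2051 under High and 10149 ± 1403 under Moderate (0.298, limma adjusted p = 0.0260). miR-497, which targets cell cycle genes, was at 256 ± 30.1 under High and 200.4 ± 44.7 under Moderate (0.395, limma adjusted p = 0.0462). In the same fit both miR-26 members had a negative log2 fold change. Without Moderate replicate 5, 8 members of the list rose in limma (4.94% of all tested miRNAs did). In all 30 libraries edgeR called 5 members higher and DESeq2 9, where 9.52% and 13% of all tested miRNAs passed in either direction. The calls rested on High replicate 5: without it 0 members of the list and 0 of 385 miRNAs (0%) passed in limma, with 12 members and 75 miRNAs at an unadjusted p under 0.05. By library totals 0 members and 0 of 389 miRNAs (0%) passed, with 12 members and 61 miRNAs at that unadjusted level.

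miRNAs described as repressors of EZH2 besides miR-26 are miR-101, miR-138, miR-124, miR-214 and the let-7 family. Rows were again matched on the miRNA number with any letter and arm. The 15 tested rows thus include let-7a-3p beside let-7a-5p, and miR-124a and miR-124b, whose limma results were identical (log2 fold change -0.13). None of the 15 rows passed in limma, edgeR or DESeq2, and 1 had an unadjusted p under 0.05 in each. Of all tested miRNAs 4.91% passed in limma, 9.52% in edgeR and 13% in DESeq2. The median log2 fold change was 0.024. Without Moderate replicate 5 it was -0.019, and none of the 15 rows passed in limma, where 11.7% of all tested miRNAs did. In that fit 3 of the 15 and 115 of 385 miRNAs had an unadjusted limma p under 0.05. In all 30 libraries the smallest p belonged to miR-138, at 3.38 ± 0.973 under High and 2.65 ± 1.03 under Moderate (0.33, limma adjusted p = 0.183). It was followed by let-7a-3p (0.196, limma adjusted p = 0.364) and miR-214 (-0.091, limma adjusted p = 0.397). Without Moderate replicate 5 miR-138 stood at 0.32, let-7a-3p at 0.082 and miR-214 at -0.12 (limma adjusted p = 0.153, 0.329 and 0.137).

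The tissue was checked against 11 lists of marker miRNAs. Of the 10 lists with a tested member, 9 had none past the test for diet, which 4.91% of all tested miRNAs passed. These lists held 2 to 7 tested members each, too few to tell 0 calls from that share. The liver list, miR-122, was too low to be tested. The exception was the list of meiotic and later germ cells, in which miR-34b and miR-34c passed and the third of its 3 tested members, miR-449a, did not. miR-202 and miR-140, of the somatic cells of the gonad, summed to 3672 to 4590 TMM-scaled CPM under High and 1893 to 5057 under Moderate. Those of smooth muscle, miR-143 and miR-145, summed to 83215 to 139866 under High and 85353 to 178449 under Moderate. In Moderate replicate 5, the lowest for both miR-26 members, the red blood cell miRNAs miR-144, miR-451 and miR-486 summed to 7927 TMM-scaled CPM. That was the highest scaled sum of all libraries, and the sum of the gonadal somatic miRNAs, 1893, was the lowest. The endothelial (5125), striated muscle (3.81) and meiotic and later germ cell (22.8) sums were also lowest there. Its smooth muscle, leukocyte, epithelial, neural, liver and spermatogonial sums lay within the range of the other libraries. In Moderate replicate 4, the highest for both miR-26 members, the red blood cell and gonadal somatic sums were 1062 and 4202, within the range of the High libraries. All scaled values of Moderate replicate 5 added up to 4224247, against 815635 to 1111446 in the other libraries. A scaled sum thus stands for a smaller share of reads there. By share, the red blood cell miRNAs were not highest there, as their sum reached 3606 in a High library with a total of at most 1111446. The gonadal somatic miRNAs were lowest there by share too, as every other library had a higher sum and a smaller total. The order of libraries by share was otherwise not tested for these lists. The part of these cell types in the miR-26 levels was not tested.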

How the data were processed

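Small RNA libraries of 30 calf testes were prepared with a TruSeq kit of Illumina, per the labels' protocols. Tools named in the submitters' processing notes are edgeR 3.5, R 3.4, cutadapt 2.6 and FastQC 0.11.8. Aligner, miRNA reference, strand setting and genome build: not given in the sources used here. Values as deposited are a normalized signal in TMM-scaled CPM. This was read from the low values of each column, which rise in steps of 1 read, so that 95.3% of 18379 values above 0 came out as whole reads, within 0.02 read. TMM factors computed from these reads differed from the deposited scaling by at most 0.000218 (natural log). miR-26b was whole in 30 libraries. miR-26a was whole in 16 and held an extra 0.5 read in 14. How reads were divided is not given, so levels of near-identical members are uncertain.

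limma 3.58.1, with diet alone in the model and a trended prior variance, was fitted to log2(value + 0.5). Fold changes are on that scale, and p-values are two-sided. edgeR 4.0.16 and DESeq2 1.42.0 were run on recovered reads rounded to whole numbers, in R 4.3.3. Permutation tests used SciPy 1.17.1. The fits and permutation tests were tested on simulated data. Libraries are 1 per calf as the labels read, and replicate numbers follow accession order. The members, lists and tests were chosen with earlier results of these data known. Named miRNAs are all rows of the family, the 3 most similar profiles per member by Spearman's rho, and in each list those past the threshold plus up to 3 with the smallest p. miR-2367-5p, the miR-409 pair and the neighbours in level were named for their position or rank. miRNA sequences and coordinates are not printed and other miRNAs with the same seed were not analysed here. Gene positions come from RefSeq, ARS-UCD2.0. The results of 1 list are not reported here.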

Additional observations from a re-analysis of the deposited data

Results flagged for a closer look

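Groups of 6 or 9 libraries were formed by diet and by whether title and characteristic give the same diet, and the highest and lowest value of miR-26a, miR-26b and their ratio were compared with the rest of each of the 12 sets. In the 9 Moderate libraries whose labels differ, Moderate replicate 4 lay far above the others. Its miR-26a value was 70105 TMM-scaled CPM, where the next highest was 51618 and the lowest 40898. Its ratio of miR-26a to miR-26b was 14.9, where the next highest was 12.8 and the lowest 11.1. miR-26a took 6.79% of the reads of this library (95% Wilson interval 6.78% to 6.81%), and miR-10b took 43.9%, within the range of the other libraries. The gap to the next value was 0.633 of the range for miR-26a and 0.557 for the ratio, where a gap over 0.493 was flagged. In independent, normally distributed values a gap past that limit arises by chance in about 1 of 20 sets. The miR-26a value enters both of the flagged results.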

How the results depend on the processing

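Neither miR-26a nor miR-26b passed an adjusted p of 0.05 under any alternative run. Few or no miRNAs passed in some of these runs: 0 of 391 where labels match, 0 of 384 where they differ and 2 of 397 in the deeper libraries. The unadjusted limma p of miR-26a was 0.0313 where labels differ and 0.0233 in the deeper libraries. The estimate of miR-26a changed sign with library totals alone (0.086, but -0.12 without Moderate replicate 5), with the diet of the titles (0.091) and with the titles without Moderate replicate 5 (0.035). That of miR-26b did so with library totals alone (0.18, or 0.0029 in the 29 libraries that leave out Moderate replicate 5), with the titles (0.063, or 0.035 in these 29) and in the 12 libraries whose labels match (0.033, but -0.038 without Moderate replicate 5). Library totals alone shifted the median log2 fold change of all tested miRNAs to 0.21. The ratio changed sign with the titles (0.028). Leaving out 1 library at a time gave -0.19 to -0.082 for miR-26a, -0.068 to -0.020 for miR-26b and -0.12 to -0.062 for the log2 ratio, which passed (permutation p = 0.0153) only without Moderate replicate 5. The correlation of the members lay at 0.639 to 0.971 over its alternatives, 0.844 without Moderate replicate 5. The MYC list had 5 members higher in limma, 8 without Moderate replicate 5, 0 without High replicate 5, 5 in edgeR, 9 in DESeq2 and 0 by library totals. The number of all miRNAs called was 19 in limma, 36 in edgeR and 52 of 399 in DESeq2. Leaving out 1 library gave 0 (High replicate 5, with 75 at an unadjusted limma p under 0.05) to 45 (Moderate replicate 5), and 9 to 12 without any 1 of High replicates 1, 4, 8, 10, 13 and 14 or Moderate replicates 1, 2, 4, 6, 8 and 13. It was 3 of 385 in libraries under 12 M reads, 0 of 389 by library totals (31 without Moderate replicate 5) and 0 of 838 with no filter on low values (104 unadjusted). The cause of these shifts was not tested. The list alternatives, the deeper libraries alone, the ratio in libraries whose labels differ, the correlation without its 2 farthest libraries, and those that pair another choice with leaving out Moderate replicate 5, were chosen after seeing the data. No paired analysis was possible because the labels give no replicate numbers that groups share. Depth limits miR-26c alone, for which up to 3 reads per library cannot be told from 0.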
